A study of Mus musculus with 13 samples.

Results

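The transforming growth factor beta (TGF-beta) system was followed through 10 genes in RNA sequencing of the mouse neurovasculature after repeated lipopolysaccharide (LPS). The genes were chosen by symbol, with earlier results of these data known, so counts of changed genes among them are not an independent test. They comprise the ligands *Tgfb1*, *Tgfb2* and *Tgfb3*, the latent ligand binding protein *Ltbp1*, the receptors *Tgfbr1*, *Tgfbr2* and *Tgfbr3*, the signal mediator *Smad3*, its inhibitor *Smad7*, and *Tgfbi*, a matrix protein gene induced by the pathway. They are 10 of the 47643 genes listed in the deposited count table, and all 10 were among the 17285 genes that passed the filter on low counts.

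TGF-beta is secreted in a latent form, wrapped in its own propeptide and tethered to matrix by latent binding proteins, and it acts only after release. Active ligand binds the type II receptor, which switches on the type I receptor, and the SMAD2 and SMAD3 proteins then carry the signal to the nucleus with SMAD4. SMAD7 is a feedback inhibitor that blocks the type I receptor. In brain vessels the pathway is known for its roles in exchange between endothelial cells and pericytes and in vessel stability, and in the brain and blood TGF-beta1 is made by microglia, macrophages and platelets, among others.

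The material came from 13 male CD1 mice aged 8 to 10 weeks: 4 sham-vehicle mice without LPS, 5 LPS-vehicle mice given LPS but no compound, and 4 LPS-CPD-4645 mice given both. LPS, a bacterial cell wall product that provokes systemic inflammation, was given 3 times, at 0, 6 and 24 h, in doses of 3 mg/kg. CPD-4645 is an inhibitor of monoacylglycerol lipase (MAGL), the main enzyme that breaks down the endocannabinoid 2-AG. By the paper, the compound also partly inhibited the serine hydrolases ABHD6 and FAAH in the brain. It was dosed at 10 mg/kg after each LPS injection, with a delay of 30 min by the methods and a longer one by the results text of the study, and all mice were killed at 28 h. No group received the compound without LPS, so every effect of CPD-4645 given here is an effect in LPS-treated mice. The vessels were isolated from frozen brains that had not been perfused, so blood cells held in the vessels were part of the material, and a library stands for the whole preparation of 1 mouse rather than for a cell type.

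The libraries held 7813559 to 55133373 counted reads, and the shallowest were LPS-vehicle mouse 3 and, next, LPS-CPD-4645 mouse 1. All 10 endothelial markers were detected, with a summed level of 431 to 1050 CPM in a library. The 8 neuronal markers, also all detected, summed to 8110 to 11100 CPM. Such sums over chosen genes do not give the share of RNA from a cell type. Expression is given below as CPM, the counts relative to the TMM-scaled total of the library, with the SD over n = 4 sham-vehicle, 5 LPS-vehicle and 4 LPS-CPD-4645 mice. "Rose" and "fell" are used where edgeR's quasi-likelihood test gave an adjusted p (Benjamini-Hochberg, over all 17285 genes) no higher than 0.05, and the study's threshold asks in addition for a 2-fold change. Log2 fold changes carry their standard error (SE).

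The first comparison, LPS-vehicle with sham-vehicle mice, asked what LPS did to the system. *Tgfb1*, *Tgfb3*, *Smad3* and *Tgfbi* rose and *Tgfbr1* and *Smad7* fell, though the call of *Smad3* was lost in 13 of the 21 alternative analyses. The largest changes were the 3.45-fold rise of *Tgfbi* and the 2.45-fold rise of *Tgfb1*. In all, 6 of the 10 genes passed the test, 4 upward and 2 downward, where 19.9% of all genes tested did. *Tgfb1* and *Tgfbi* were past the study's threshold, which 5.68% of all genes passed. The median log2 fold change of the 10 genes was 0.01, beside a median of 0.00 over all genes tested. In 6 of the 10 genes, *Tgfb2* among them, the LPS-vehicle and sham-vehicle mice did not overlap at all, against 18.1% of all genes.

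The second comparison, LPS-CPD-4645 with LPS-vehicle mice, asked what CPD-4645 did on top of LPS. *Tgfb1* and *Tgfb3* fell, and all 3 receptors rose, though the call of *Tgfbr1* was lost in 10 of the 21 alternatives. Of the 10 genes, 5 passed the test, 3 upward and 2 downward, beside 30.5% of all genes tested. Only *Tgfb1* among the 10 was past the study's threshold, which 5.9% of all genes passed. The mice of both groups were fully separated for 5 genes, against 23.0% of all genes. The median log2 fold change of the 10 genes was 0.18, beside -0.02 over all genes. This comparison uses the same LPS-vehicle libraries as the first, so a chance deviation of those mice would enter both with opposite sign.

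Against sham-vehicle mice, LPS-CPD-4645 mice had higher *Tgfbr2*, *Tgfbr3*, *Smad3* and *Tgfbi* and lower *Smad7*. These 5 of the 10 genes passed the test beside 38.8% of all genes. *Tgfbi* was past the study's threshold, which 11.1% of all genes passed. For 5 of the 10 genes no mouse of one group entered the range of the other, against 37.5% of all genes. Without sham-vehicle mouse 1 there were 2 genes past this threshold, since *Tgfbr2* then reached a log2 fold change of 1.09. The median log2 fold change was 0.16, beside -0.01 over all genes.

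**Figure D1:**
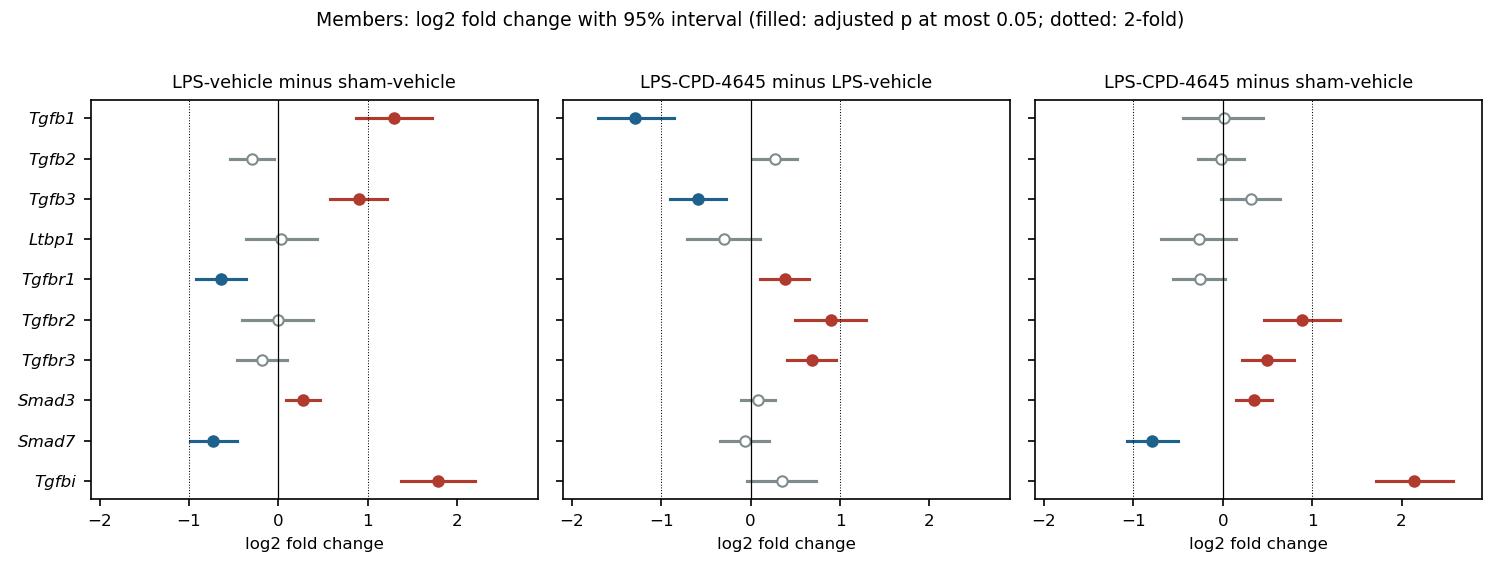
Log2 fold change (horizontal axis) of the 10 TGF-beta genes in the 3 comparisons, with bars for the 95% interval of the edgeR fit. Filled symbols mark an adjusted p of at most 0.05, and dotted lines mark 2-fold. *Tgfb1* lies at 1.29 after LPS, at -1.29 for LPS-CPD-4645 against LPS-vehicle and at 0.01 against sham-vehicle, while *Smad7* and *Tgfbi* stay displaced from sham-vehicle in both LPS groups.

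*Tgfb1* (chromosome 7 of GRCm38, 25687002 to 25705077) encodes the best known of them. It stood at 6.99, 6.56, 6.57 and 3.85 CPM in the 4 sham-vehicle mice, at 14.7, 21.4, 13.1, 11.8 and 12.5 CPM in the 5 LPS-vehicle mice and at 6.01, 6.44, 6.29 and 5.42 CPM in the 4 LPS-CPD-4645 mice. Every LPS-vehicle mouse was above every mouse of the other groups, LPS-vehicle mouse 2 was the highest, and sham-vehicle mouse 4 was the lowest of all. The means were 5.99 ± 1.44, 14.7 ± 3.89 and 6.04 ± 0.45 CPM. The log2 fold change after LPS was 1.29 (SE 0.20, adjusted p = 0.00014), and with CPD-4645 against LPS-vehicle it was -1.29 (SE 0.20, adjusted p = 0.00018). Between LPS-CPD-4645 and sham-vehicle mice the difference was 0.01 with a 95% interval from -0.44 to 0.45 (adjusted p = 0.99), so a difference of that size in either direction was not resolved. In bulk tissue, fewer cells that hold an RNA and less of that RNA in each cell cannot be told apart, which holds for every gene here.

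Many markers of monocytes, macrophages and neutrophils changed in the same directions as *Tgfb1*, and so did some endothelial markers. The 10 monocyte and macrophage markers summed to 31.9 to 34.7 CPM for sham-vehicle, 68.8 to 120 CPM for LPS-vehicle and 31.4 to 46.9 CPM for LPS-CPD-4645 mice. Of the 8 that could be tested, 6 rose after LPS and none fell, and 4 fell with CPD-4645 and none rose. Beside these and the marker counts that follow, 19.9% of all genes were called after LPS and 30.5% with CPD-4645. All 9 neutrophil markers rose after LPS and 8 fell with CPD-4645. Together they summed to 7.46 to 61.6 CPM for sham-vehicle, 519 to 1180 CPM for LPS-vehicle and 683 to 927 CPM for LPS-CPD-4645 mice. That sum thus did not separate the LPS groups, and *Lcn2* itself, at 700 ± 191 and 778 ± 125 CPM in them, did not fall. *Lcn2*, which many cells make in inflammation, dominated that list, and without it, a choice made after the values were seen, the other 8 summed to 1.23 to 5.59, 66.6 to 281 and 7.3 to 27.5 CPM in the 3 groups. LPS-vehicle mouse 2, the highest for *Tgfb1*, was also the highest for these 8 markers, at 281 CPM, whereas the highest for the monocyte and macrophage list was LPS-vehicle mouse 3. The part of these cells in the *Tgfb1* difference was not tested. Platelets carry much TGF-beta1, and their 8 markers summed to 12.8 to 18.1, 11.8 to 17.3 and 14.9 to 21.6 CPM, and of the 3 tested none changed after LPS, while *Gp1bb* rose and *Itga2b* fell with CPD-4645. *Gp1bb* made up most of that sum, with means of 8.60, 9.28 and 13.8 CPM, and 5 of the 8 did not pass the filter. Of these, *Ppbp* had means of 0.757, 0.169 and 0.0956 CPM and *Treml1* of 0.235, 0.117 and 0.0675 CPM, so the sum does not follow every marker. Microglial markers went the other way from *Tgfb1* after LPS: 5 of 9 fell and none rose. With CPD-4645, 3 fell and 1 rose. Their sum was 243 to 325 CPM for sham-vehicle, 174 to 305 CPM for LPS-vehicle and 160 to 208 CPM for LPS-CPD-4645 mice. After LPS, 5 endothelial, 1 pericyte and smooth muscle, 1 fibroblast, 2 astrocyte and 1 oligodendrocyte markers rose, and 2, 4, 3, 0 and 4 markers of the same lists fell, as did 2 neuronal markers and 1 choroid plexus marker. With CPD-4645, 4 of the 10 endothelial markers fell and none rose. Among them, *Pecam1* (means of 29.3, 50.5 and 29.0 CPM) and *Cldn5* (107, 169 and 114 CPM) rose after LPS and fell with CPD-4645. *Cdh5* rose and did not fall (26.7, 58.4 and 58.3 CPM). No marker list except the lymphocyte list had a marker at 0 counts in every library. That list summed to at most 0.856 CPM, none of its 8 genes passed the filter, and *Trbc1* was at 0 throughout.

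**Figure D2:**
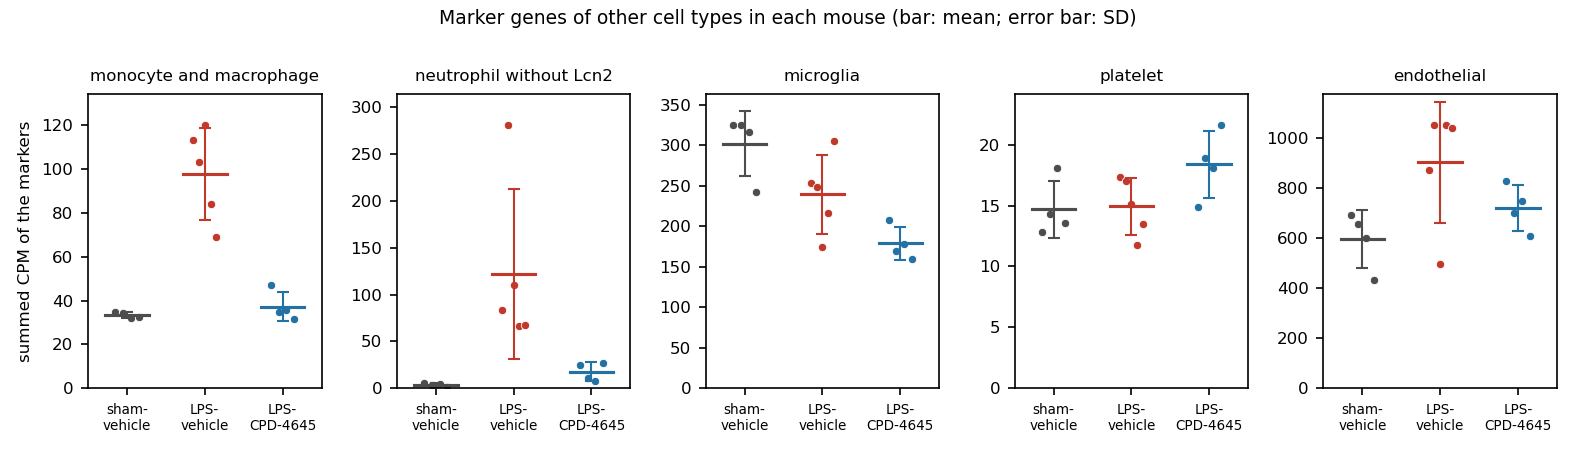
Summed CPM (vertical axis) of the monocyte and macrophage, neutrophil (without *Lcn2*), microglia, platelet and endothelial marker genes in each mouse (points), with the mean (bar) and SD (error bar) of the sham-vehicle, LPS-vehicle and LPS-CPD-4645 groups. Monocyte and macrophage markers reach 68.8 to 120 CPM in LPS-vehicle mice and at most 46.9 CPM in the other groups.

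*Tgfb2* (chromosome 1, 186622792 to 186705989) gave values of the opposite sign and of smaller size. Its levels were 16.9, 15.4, 15.8 and 20.8 CPM for sham-vehicle, 13.3, 14.5, 13, 14.3 and 14.9 CPM for LPS-vehicle and 18.1, 16.0, 16.2 and 17.5 CPM for LPS-CPD-4645 mice. The 5 LPS-vehicle mice were the lowest of the 13, without overlap with either other group. The log2 fold change was -0.29 after LPS (SE 0.12, 95% interval -0.54 to -0.05, adjusted p = 0.085) and 0.27 with CPD-4645 (SE 0.12, adjusted p = 0.087), so neither passed the test over all genes. *Gm29491*, which shares exons with *Tgfb2* on the other strand, held 0 to 32 counts per library.

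*Tgfb3* (chromosome 12, 86056745 to 86079041) followed *Tgfb1* in direction. Sham-vehicle mice had 14.0, 15.6, 11.3 and 10.3 CPM, LPS-vehicle mice 22.0, 22.7, 24.1, 22.3 and 28.8 CPM, and LPS-CPD-4645 mice 16.1, 13.2, 19.9 and 14.6 CPM. All LPS-vehicle mice lay above all others, while the LPS-CPD-4645 and sham-vehicle mice overlapped. *Tgfb3* rose 1.87-fold after LPS (log2 fold change 0.90, SE 0.15, adjusted p = 0.00028) and fell with CPD-4645 (-0.59, SE 0.15, adjusted p = 0.0065). LPS-CPD-4645 mice stood 0.31 above sham-vehicle mice on the log2 scale, with an interval from -0.02 to 0.64 (adjusted p = 0.12). Without sham-vehicle mouse 2 this last difference was 0.43 and just passed the test (adjusted p = 0.048), and the rise after LPS was then past 2-fold. *Ttll5*, on the other strand of the same region with no exon in common, held 167 to 1301 counts, and *Gm37804*, which shares exons on the other strand, at most 6.

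*Ltbp1* (chromosome 17, 75005568 to 75392512), which fixes latent TGF-beta in the matrix, did not change detectably. It stood at 9.18, 8.25, 8.64 and 7.80 CPM in sham-vehicle and at 9.27, 8.00, 8.82, 8.93 and 8.44 CPM in LPS-vehicle mice. In LPS-CPD-4645 mice it stood at 7.91, 8.29, 3.84 and 8.16 CPM, and mouse 3 alone was far below the rest. The log2 fold change after LPS was 0.03 with an interval from -0.36 to 0.43, and with CPD-4645 it was -0.30 (SE 0.19, adjusted p = 0.24). Without LPS-CPD-4645 mouse 3 the latter was -0.09.

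**Figure D3:**
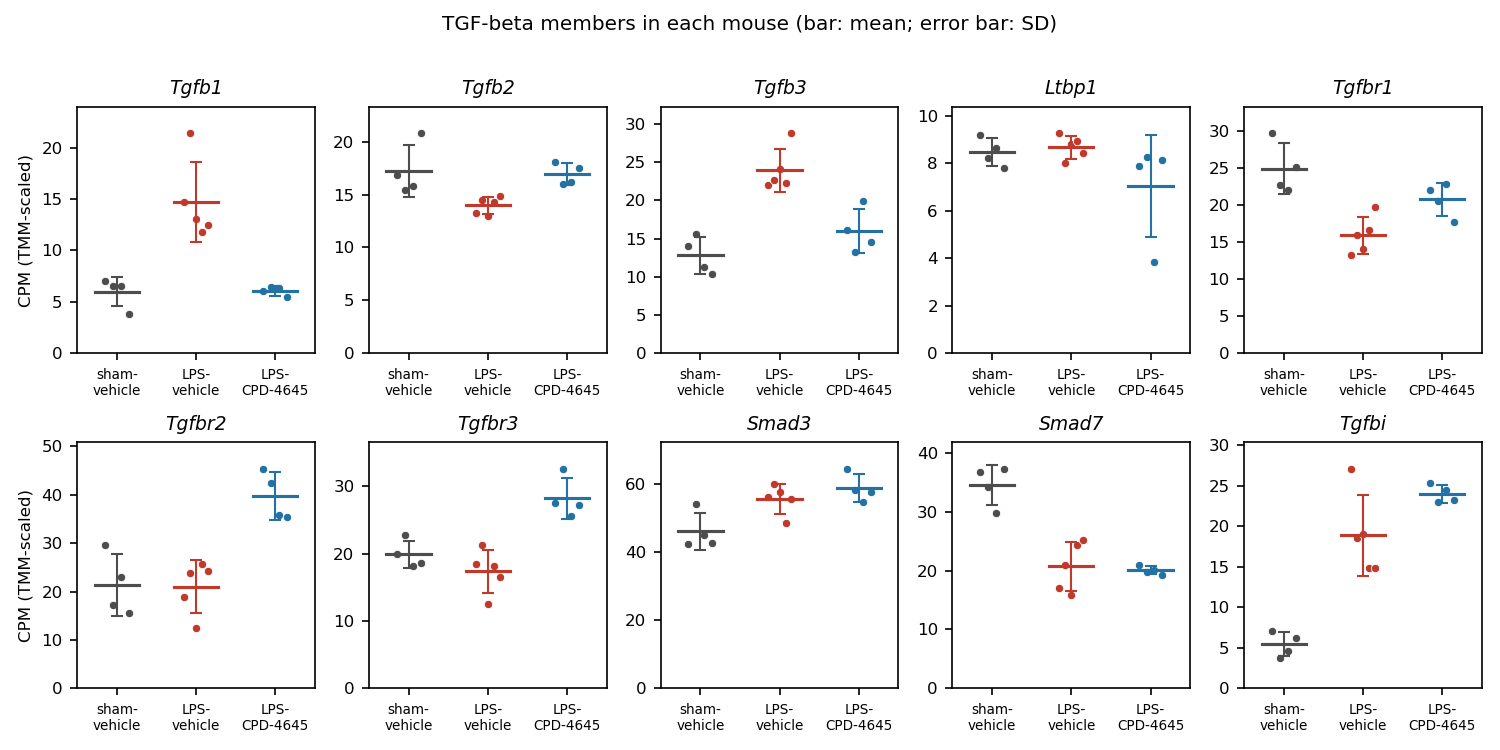
CPM (vertical axis, from 0) of the 10 TGF-beta genes in each of the 13 mice (points), with the group mean (bar) and SD (error bar). *Tgfb1* and *Tgfb3* are highest in LPS-vehicle mice, *Tgfbr2* and *Tgfbr3* in LPS-CPD-4645 mice, and *Smad7* in sham-vehicle mice.

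Levels of different genes were compared per kilobase of exon. Within each mouse, *Tgfb1* made up 27.7 ± 5.30% of the summed per-kilobase level of the 3 ligands for sham-vehicle, 40.5 ± 6.71% for LPS-vehicle and 25.9 ± 2.62% for LPS-CPD-4645 mice. Its share was 33.5% to 50.9% in LPS-vehicle mice and at most 32.1% in any other mouse. The share of *Tgfb2* was 34.0 ± 7.78%, 16.4 ± 1.55% and 30.5 ± 2.98%. It stayed at or below 18.7% in every LPS-vehicle mouse and at or above 26.2% in every other mouse. *Tgfb3* held 38.2 ± 4.07%, 43.2 ± 5.61% and 43.6 ± 4.35%, and its groups overlapped. For all 3 ligands the ranges of sham-vehicle and LPS-CPD-4645 mice overlapped. A share depends on all 3 ligands. Per kilobase, *Tgfb2* averaged 3.31 CPM in sham-vehicle and 2.69 CPM in LPS-vehicle mice. *Tgfb1* averaged 2.75 and 6.76 CPM, and *Tgfb3* 3.79 and 7.09 CPM. These shares are descriptions and were not tested.

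Promoter sequence is shown for *Tgfb1* and *Tgfb2*, ligands that lay on opposite sides in LPS-vehicle mice, and for *Tgfbr2*, which had the largest rise of the 3 receptors among the 10 genes under CPD-4645. Each is the 250 bases before a transcript start in RefSeq on GRCm38.p6, written 5′ to 3′ on the strand of the gene, and none was assayed in this experiment. They lie at chr7:25686752-25687001 (plus strand), chr1:186705990-186706239 (minus strand) and chr9:116175364-116175613 (minus strand). Capitals mark matches, on either strand, to the SMAD-binding letters CAGAC, to the GC box GGGCGG, read CCGCCC on the other strand, and to the TATA box TATAAA. None of the capitals overlap.
Tgfb1: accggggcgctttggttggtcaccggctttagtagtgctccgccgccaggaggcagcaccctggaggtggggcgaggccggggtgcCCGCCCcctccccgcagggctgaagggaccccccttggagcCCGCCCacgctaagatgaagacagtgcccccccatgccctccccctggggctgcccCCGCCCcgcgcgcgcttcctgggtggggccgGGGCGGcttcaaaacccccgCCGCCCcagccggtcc
Tgfb2: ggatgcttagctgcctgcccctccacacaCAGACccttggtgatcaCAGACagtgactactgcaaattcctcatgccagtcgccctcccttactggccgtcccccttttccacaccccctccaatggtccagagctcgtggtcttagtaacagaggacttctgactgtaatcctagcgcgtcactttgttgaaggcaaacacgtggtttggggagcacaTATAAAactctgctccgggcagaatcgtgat
Tgfbr2: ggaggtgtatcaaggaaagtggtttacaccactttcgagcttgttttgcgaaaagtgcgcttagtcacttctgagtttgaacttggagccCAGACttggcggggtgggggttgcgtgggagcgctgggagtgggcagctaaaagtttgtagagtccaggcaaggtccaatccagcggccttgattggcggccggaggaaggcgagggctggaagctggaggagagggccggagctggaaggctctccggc
The *Tgfb1* window held 75.2% G or C, 21 CpG pairs and 5 GC boxes, with no CAGAC or TATAAA. The *Tgfb2* window held 53.6% G or C, 2 CAGAC matches, starting 221 and 204 bases before the start, and a TATAAA 31 bases before it. In the *Tgfbr2* window there were 58.4% G or C and a single CAGAC, 160 bases before the start. Such letters are common: of 32851 promoter windows of this length, 42.2% held CAGAC, 32.7% GGGCGG and 12.4% TATAAA. Promoter windows were examined for 7 of the 10 genes, in 9 windows. No window of *Tgfb3*, *Tgfbr3* or *Smad7* was examined, so the next counts do not cover these genes. None of the 9 windows held the AP-1 letters TGANTCA, found in 6.75% of all windows, or a kappa-B motif, found in 3.9%. These matches describe letters, not binding.

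*Tgfbr1* (chromosome 4, 47353222 to 47414931) encodes the type I receptor kinase that SMAD7 blocks. Its levels were 29.7, 22.7, 22.1 and 25.1 CPM for sham-vehicle mice, 13.3, 15.9, 14.1, 16.6 and 19.7 CPM for LPS-vehicle mice and 22.0, 20.6, 22.8 and 17.7 CPM for LPS-CPD-4645 mice. All LPS-vehicle mice were below all sham-vehicle mice, and the LPS-CPD-4645 mice overlapped both groups, with mouse 4 inside the LPS-vehicle range. *Tgfbr1* fell after LPS (log2 fold change -0.64, SE 0.13, adjusted p = 0.0019). It rose with CPD-4645 by 0.38 (SE 0.13, adjusted p = 0.039). The rise was close to the threshold and was lost in 10 of the 21 alternatives, limma-voom among them (adjusted p = 0.051). It was also lost without LPS-vehicle mouse 1, 2, 3 or 4 or LPS-CPD-4645 mouse 1, 2 or 3 (log2 fold change 0.31 to 0.39, adjusted p 0.053 to 0.095).

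*Tgfbr2* (chromosome 9, 116084293 to 116175360) encodes the type II receptor, which binds the ligand and activates the type I receptor. It stood at 29.7, 17.3, 22.9 and 15.6 CPM for sham-vehicle mice, at 18.9, 23.8, 12.5, 25.7 and 24.2 CPM for LPS-vehicle mice and at 45.4, 42.4, 35.8 and 35.4 CPM for LPS-CPD-4645 mice. Sham-vehicle and LPS-vehicle mice overlapped, and all 4 LPS-CPD-4645 mice lay above them. After LPS the log2 fold change was -0.01 with an interval from -0.41 to 0.39. *Tgfbr2* rose 1.86-fold with CPD-4645 against LPS-vehicle (log2 fold change 0.90, SE 0.19, adjusted p = 0.0018) and 1.85-fold against sham-vehicle (0.89, SE 0.20, adjusted p = 0.0021). The lowest LPS-vehicle value came from mouse 3, the shallowest library, whose endothelial marker sum of 494 CPM was also the lowest of its group. Without that library the rise was 0.78 (adjusted p = 0.0024).

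*Tgfbr3* (chromosome 5, 107106570 to 107289629) encodes betaglycan, a co-receptor that presents ligand to the signalling receptors. Its levels were 20.0, 22.7, 18.2 and 18.6 CPM for sham-vehicle, 18.4, 21.2, 12.5, 18.2 and 16.5 CPM for LPS-vehicle and 27.5, 32.6, 25.6 and 27.2 CPM for LPS-CPD-4645 mice. As for *Tgfbr2*, the groups without compound overlapped and all 4 LPS-CPD-4645 mice were above them. The log2 fold change was -0.18 after LPS (SE 0.13, adjusted p = 0.38). It was 0.69 with CPD-4645 against LPS-vehicle (SE 0.13, adjusted p = 0.00091) and 0.50 against sham-vehicle (SE 0.14, adjusted p = 0.0081). *Gm43422*, which shares exons on the same strand, held at most 7 counts in a library.

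Beside the rise of *Tgfbr2* and *Tgfbr3*, none of the 10 endothelial markers rose with CPD-4645 and 4 fell, with sums of 494 to 1050 CPM for LPS-vehicle and 608 to 827 CPM for LPS-CPD-4645 mice. None of the 10 pericyte and smooth muscle markers and none of the 7 fibroblast markers tested changed in that comparison. In the same comparison 2 choroid plexus markers of 7 rose and their sum went from 175 to 381 CPM up to 249 to 793 CPM, 2 of 7 oligodendrocyte markers rose and 1 fell, and 1 of 8 neuronal markers rose. None of the 8 astrocyte markers changed. Of all genes tested, 30.5% were called in this comparison. The part of these cell types in the receptor values was not tested.

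Per kilobase, the ratio of *Tgfbr2* to *Tgfbr1* within a mouse was 0.670 ± 0.155 for sham-vehicle, 1.03 ± 0.21 for LPS-vehicle and 1.51 ± 0.186 for LPS-CPD-4645 mice. The LPS-CPD-4645 mice, at 1.23 to 1.62, lay above all others, whose highest ratio was 1.21, while LPS-vehicle mouse 3 at 0.693 was inside the sham-vehicle range. *Tgfbr3* to *Tgfbr1* was 0.852, 1.17 and 1.45 on average.

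Downstream of the receptors, *Smad3* and *Smad7* moved apart. *Smad3* (chromosome 9, 63646767 to 63757994), the transcription factor that carries the signal, stood at 42.4, 54.1, 45.0 and 42.5 CPM for sham-vehicle, at 56.2, 59.9, 57.6, 48.5 and 55.4 CPM for LPS-vehicle and at 64.4, 58.2, 54.5 and 57.6 CPM for LPS-CPD-4645 mice. LPS-vehicle mouse 4 lay within the sham-vehicle range and all LPS-CPD-4645 mice lay above it. The 1.21-fold rise after LPS was small (log2 fold change 0.27, SE 0.09, adjusted p = 0.046). It did not pass in 13 of the 21 alternatives, among them those without sham-vehicle mouse 1, 3 or 4, LPS-vehicle mouse 1, 2, 3 or 5, or LPS-CPD-4645 mouse 2 or 4 (log2 fold change 0.23 to 0.27, adjusted p 0.054 to 0.13). LPS-CPD-4645 mice were 1.27-fold above sham-vehicle mice (0.35, SE 0.10, adjusted p = 0.008), and against LPS-vehicle the difference was 0.08 with an interval from -0.11 to 0.27.

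*Smad7* (chromosome 18, 75367529 to 75395935) is itself induced by TGF-beta signalling in many cells and closes the loop. It stood at 36.8, 34.1, 29.8 and 37.3 CPM for sham-vehicle, at 17.1, 20.9, 15.9, 24.4 and 25.2 CPM for LPS-vehicle and at 21, 19.8, 20.1 and 19.3 CPM for LPS-CPD-4645 mice. Every mouse given LPS was below every sham-vehicle mouse. The log2 fold change was -0.73 after LPS (SE 0.13, adjusted p = 0.00051) and -0.79 for LPS-CPD-4645 against sham-vehicle (SE 0.14, adjusted p = 0.00022). Between the LPS groups it was -0.06 with an interval from -0.34 to 0.21. The ratio of *Smad3* to *Smad7* per kilobase was 1.16 ± 0.20 for sham-vehicle, 2.40 ± 0.601 for LPS-vehicle and 2.52 ± 0.125 for LPS-CPD-4645 mice. The lowest ratio in a mouse given LPS was 1.71, and the highest in a sham-vehicle mouse was 1.36.

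*Tgfbi* (chromosome 13, 56609523 to 56639562) encodes a secreted adhesion protein named for its induction by TGF-beta. Sham-vehicle mice had 7.10, 3.78, 4.66 and 6.22 CPM and LPS-vehicle mice 27.1, 18.6, 19.0, 14.8 and 14.9 CPM. The LPS-CPD-4645 mice had 25.3, 23.0, 24.5 and 23.2 CPM. All 9 mice given LPS were above all sham-vehicle mice, and LPS-vehicle mouse 1 was the highest. *Tgfbi* rose after LPS (log2 fold change 1.79, SE 0.20, adjusted p = 3.5e-06), and LPS-CPD-4645 mice stood 4.40-fold above sham-vehicle (2.14, SE 0.21, adjusted p = 5e-07). Against LPS-vehicle the difference was 0.35 (SE 0.18, 95% interval -0.04 to 0.73, adjusted p = 0.16), and without LPS-vehicle mouse 1 it was 0.52 and passed the test (adjusted p = 0.031). The ratio of *Tgfbi* to *Tgfb1* per kilobase was 0.783 ± 0.368 for sham-vehicle, 1.06 ± 0.287 for LPS-vehicle and 3.20 ± 0.258 for LPS-CPD-4645 mice, where the lowest mouse had 2.87 and the highest mouse of the other groups had 1.48. Monocytes and macrophages also express *Tgfbi*. Their summed markers were higher in every LPS-vehicle mouse than in every sham-vehicle mouse, as *Tgfbi* was, and were at most 46.9 CPM in LPS-CPD-4645 mice, against 68.8 CPM in the lowest LPS-vehicle mouse. The part of these cells in the *Tgfbi* values was not tested.

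**Figure D4:**
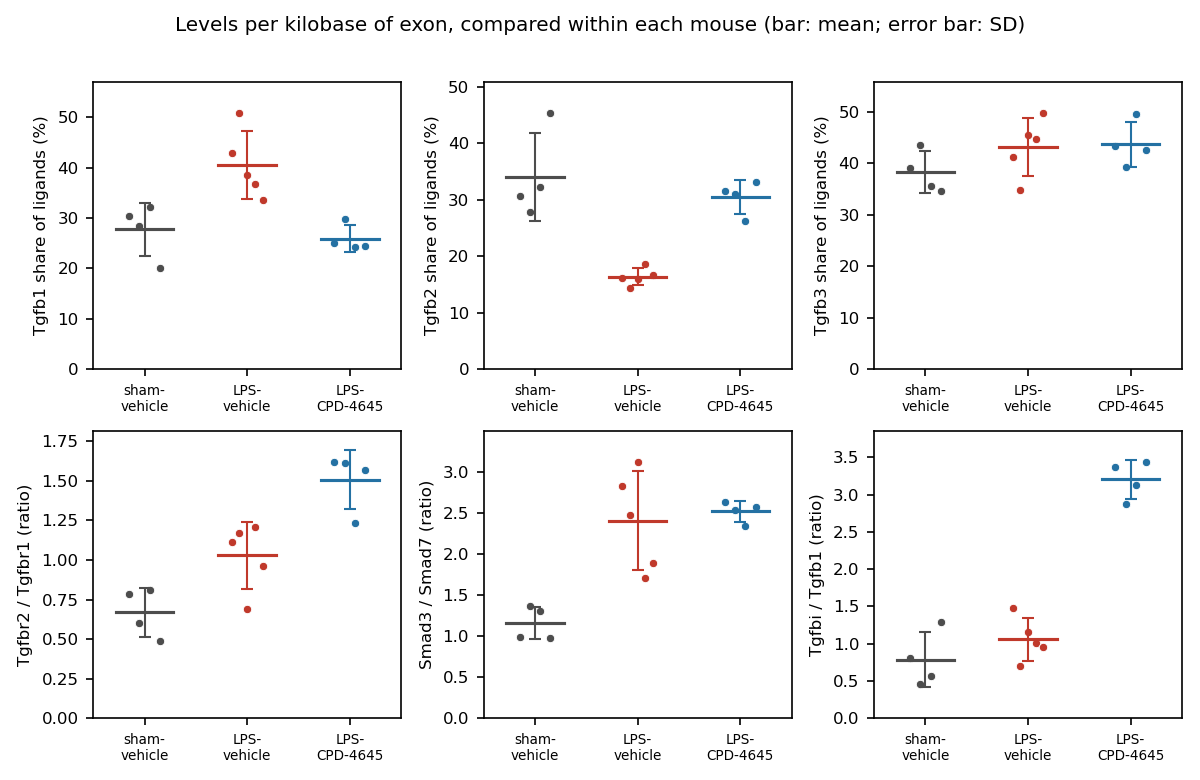
Shares of the 3 ligands (vertical axes in percent of their summed per-kilobase level) and ratios between genes per kilobase, in each mouse (points), with the group mean (bar) and SD (error bar). *Tgfb2* holds at most 18.7% of the ligand level in LPS-vehicle mice, and *Tgfbi* over *Tgfb1* is 2.87 or more in LPS-CPD-4645 mice only.

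Ordered by mean CPM per kilobase, *Smad3* led every group, at 9.04 for sham-vehicle, 10.9 for LPS-vehicle and 11.5 for LPS-CPD-4645 mice, and *Ltbp1* was last, at 1.23, 1.26 and 1.02. In sham-vehicle mice *Smad7* came next to *Smad3*, at 7.88, and its range overlapped that of *Smad3*. The 6 genes from *Tgfbr1* at 3.88 down to *Tgfbr2* at 2.61 each overlapped their neighbours. In LPS-vehicle mice *Tgfb3* at 7.09, *Tgfbi* at 6.96 and *Tgfb1* at 6.76 took the places after *Smad3* and did not differ beyond their spread. *Smad7* followed at 4.73. In LPS-CPD-4645 mice *Tgfbi* at 8.85 came next to *Smad3*, clear of its neighbours on both sides. *Tgfbr2*, *Tgfb3*, *Tgfbr3* and *Smad7* followed at 4.86, 4.72, 4.63 and 4.58 with overlapping ranges, and *Tgfb1* was down to 2.78, above *Ltbp1*.

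Over the 13 mice, the genes whose log2 CPM ran most nearly parallel to *Tgfb1*, among 14844 genes averaging 1 CPM or more, were *Ifi27*, *Card9*, *Iqgap1*, *Ltf* and *Gm20559*. Pearson's r was 0.95, 0.94, 0.94, 0.94 and 0.93, and Spearman's rho was 0.90, 0.97, 0.87, 0.74 and 0.98. The 13 mice share the group pattern, and within groups r was 0.72, 0.73, 0.74, 0.75 and 0.89. *Card9*, an adaptor protein of myeloid cells, went from 2.85 ± 0.56 CPM for sham-vehicle to 5.25 ± 1.03 CPM for LPS-vehicle and 2.65 ± 0.254 CPM for LPS-CPD-4645 mice. *Ltf*, the lactoferrin of neutrophil granules and a gene of the neutrophil marker list, went from 0.345 ± 0.289 to 4.99 ± 3.71 and 0.530 ± 0.326 CPM. *Ifi27* is an interferon-induced gene and *Iqgap1* a scaffold protein of the cytoskeleton. They stood at 49.1 ± 10.1 and 32.4 ± 4.25 CPM in LPS-vehicle mice, against 25.6 ± 1.88 and 21.6 ± 2.89 CPM in sham-vehicle mice. For *Tgfb3* r with *Tgfb1* was 0.82 over all mice and 0.24 within groups.

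Around these genes, 88 others of the wider pathway were listed by role, also with earlier results known, and 85 of them were tested. After LPS, 41 passed the test, 27 upward and 14 downward, beside the 19.9% of all genes, and 18 of them were past 2-fold. With CPD-4645 against LPS-vehicle, 25 passed, 13 upward and 12 downward, beside 30.5%, and the 4 past 2-fold all fell. Against sham-vehicle, 46 passed in LPS-CPD-4645 mice, 31 upward and 15 downward, beside 38.8%. The medians of the 85 were 0.12, 0.04 and 0.17 on the log2 scale.

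Of the 19 tested genes of ligand latency and activation, 9 rose and 3 fell after LPS, beside 19.9% of all genes called. The list's median was 0.46 on the log2 scale. *Lrrc32*, which anchors latent TGF-beta at the cell surface, went from 4.46 ± 0.726 CPM for sham-vehicle to 18.3 ± 8.01 for LPS-vehicle and 8.63 ± 1.72 for LPS-CPD-4645 mice, with no overlap between any of the groups. Its log2 fold change was 2.05 after LPS (SE 0.26) and -1.11 with CPD-4645 (SE 0.25, adjusted p = 0.0027). *Thbs1*, an activator of latent TGF-beta, rose by 1.35 (SE 0.38) and fell with CPD-4645 (-1.14, SE 0.38, adjusted p = 0.028), though its groups overlapped. *Lrg1*, a secreted modulator of endothelial TGF-beta signalling, rose by 3.40 (SE 0.26), from 2.93 ± 0.88 to 31.1 ± 11.6 CPM, and stood at 31.4 ± 3.8 CPM in LPS-CPD-4645 mice. *Htra1*, a secreted protease, rose by 1.29 (SE 0.13) and rose again by 0.57 with CPD-4645. *Fmod*, a matrix proteoglycan that binds TGF-beta, fell after LPS (-1.36, SE 0.25). In the CPD-4645 comparison 2 of the 19 rose and 4 fell, beside 30.5% of all genes called.

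Of the 12 further receptors, 2 rose and 1 fell after LPS, and 3 rose and 2 fell with CPD-4645, beside 19.9% and 30.5% of all genes called. *Acvrl1*, an endothelial type I receptor, went from 17.5 ± 4.93 to 30.8 ± 7.28 and 16.0 ± 4.21 CPM, with a log2 difference of 0.82 after LPS (SE 0.22, adjusted p = 0.012) and of -0.95 with CPD-4645 (SE 0.22, adjusted p = 0.0033). Of the 17 SMADs and cofactors, 3 rose and 2 fell after LPS, beside 19.9% of all genes called. *Tgif1*, a repressor of SMAD target genes, rose by 1.38 (SE 0.23). With CPD-4645, 6 of the 17 rose and none fell, with a median of 0.25, a share of calls near the 30.5% of all genes. The lowest adjusted p was that of *Ppm1a*, a phosphatase of SMAD2 and SMAD3, at 136 ± 14.6 CPM for LPS-vehicle and 211 ± 15.7 CPM for LPS-CPD-4645 mice (log2 fold change 0.63, SE 0.08, adjusted p = 4e-05). *Skil*, a SMAD repressor that the pathway induces, was -0.22 after LPS (SE 0.11, adjusted p = 0.19) and rose by 0.36 with CPD-4645 (SE 0.11, adjusted p = 0.021).

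Of the 17 tested other ligands and antagonists of the superfamily, 4 rose and 3 fell after LPS, beside 19.9% of all genes called. With CPD-4645, 1 rose and 2 fell, a smaller share than the 30.5% of all genes. *Inhbb*, which encodes an activin subunit, went from 10.0 ± 1.53 to 36.3 ± 11.7 and 14.6 ± 1.89 CPM. It rose by 1.86 after LPS (SE 0.20, adjusted p = 2.5e-06) and fell with CPD-4645 (-1.32, SE 0.19, adjusted p = 0.0001), with all LPS-vehicle mice above all others. *Bmp4*, a bone morphogenetic protein, fell after LPS (-1.01, SE 0.21, adjusted p = 0.0021) and rose with CPD-4645 (0.61, SE 0.21, adjusted p = 0.039), and its difference of -0.41 from sham-vehicle did not pass the test (adjusted p = 0.15).

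Of the 20 target genes, 9 rose and 5 fell after LPS, with a median of 0.42, beside 19.9% of all genes called. With CPD-4645, 1 rose and 4 fell, beside 30.5% of all genes called. *Itga5*, the fibronectin receptor subunit, stood at 4.87 ± 0.576 CPM for sham-vehicle, 19.2 ± 3.98 for LPS-vehicle and 11.4 ± 2.41 for LPS-CPD-4645 mice. It rose by 1.97 after LPS (SE 0.19, adjusted p = 5.9e-07) and fell with CPD-4645 by 0.75 on the log2 scale (SE 0.18, adjusted p = 0.004). *Timp1*, a metalloproteinase inhibitor, rose by 4.57 after LPS (SE 0.39), and with CPD-4645 its difference of -0.16 did not pass the test (adjusted p = 0.71). *Ccn1*, a matricellular protein gene, rose by 1.67 (SE 0.26). *Id1*, a target of the BMP branch, rose by 0.65 after LPS (SE 0.18, adjusted p = 0.014) and differed by 0.30 with CPD-4645 (adjusted p = 0.20). The contractile genes *Acta2* and *Tagln* fell after LPS (-1.15, SE 0.22, and -1.04, SE 0.17). Both are also pericyte and smooth muscle markers, of which 4 of 10 fell and 1 rose after LPS, with sums of 263 to 394 CPM in sham-vehicle and 193 to 321 CPM in LPS-vehicle mice.

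**Figure D5:**
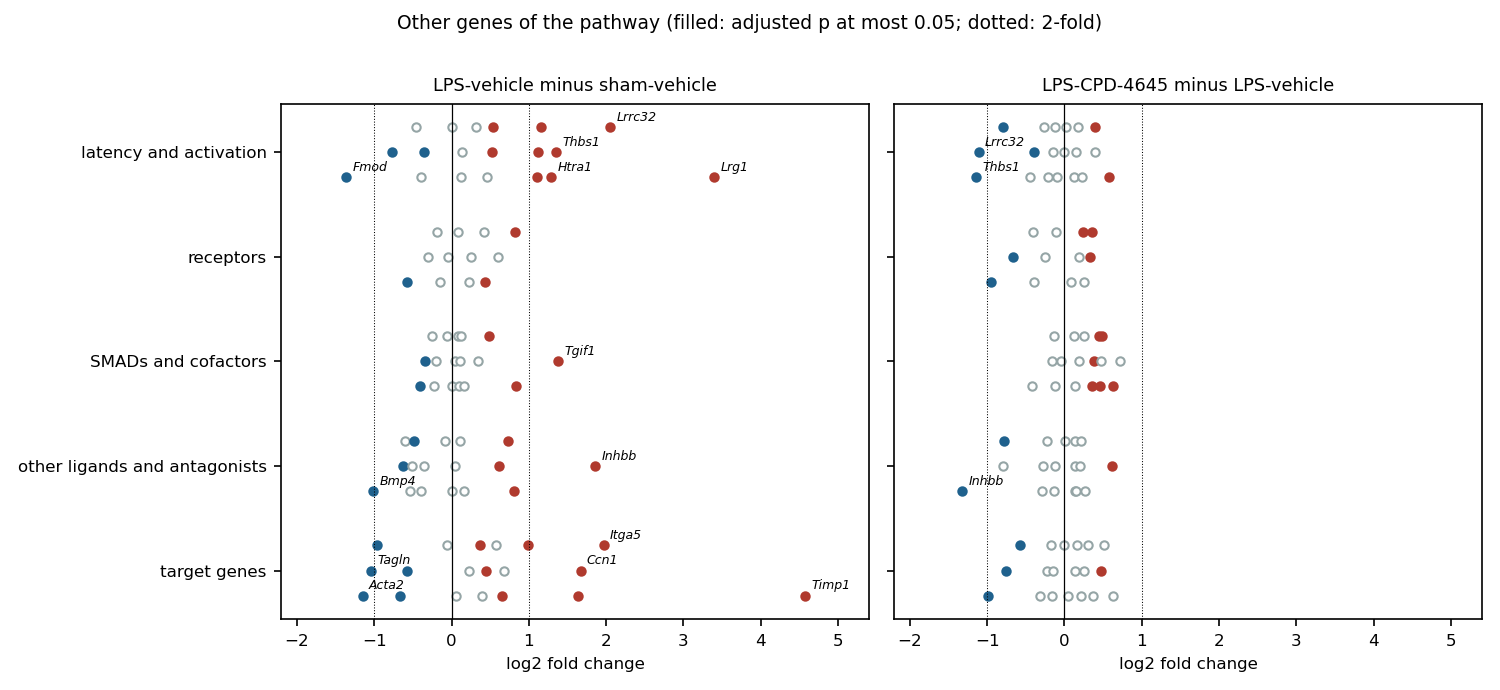
Log2 fold change (horizontal axis) of the tested pathway genes beyond the 10, save 1 target gene that is not shown, in rows by role, for LPS-vehicle against sham-vehicle (left) and LPS-CPD-4645 against LPS-vehicle (right). Filled points have an adjusted p of at most 0.05, red higher and blue lower. Of the genes shown, *Timp1* and *Lrg1* lie farthest right after LPS, at 4.57 and 3.40, and *Inhbb*, *Thbs1* and *Lrrc32* are past 2-fold lower with CPD-4645.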

How the data were processed

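Neurovascular RNA of 13 mice was sequenced from stranded TruSeq mRNA libraries as single-end reads. Per the study's methods and processing notes, the authors demultiplexed reads with bcl2fastq 2.15.0.4, aligned them to GRCm38 with STAR 2.5.2a, and deposited raw, unnormalized gene counts made with GENCODE M9 basic. The strand column used is not given in the sources used here, so an antisense neighbour may share reads with a gene. Identifiers were matched to GENCODE M21 (GRCm38) once their version was dropped, and 47224 of 47643 matched.

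Groups and mouse numbers came from the labels. Genes were kept by filterByExpr (minimum count 10, minimum total 15), leaving 17285 of 27934 genes that had a count. Counts were scaled by TMM (factors 0.908 to 1.08) and all 13 mice were fitted in 1 quasi-likelihood model of 3 groups with edgeR 4.0.16 in R 4.3.3, at a common dispersion of 0.0334. Adjusted p values are Benjamini-Hochberg over all genes tested. SEs and 95% intervals of log2 fold changes came from the same fit. Log2 CPM used a prior count of 2. Total counts ran from 7813559 to 55133373, and over 22 replicate pairs the chi-square per gene was 9.32 to 57.3, so on average the spread between mice exceeded counting error. Mitochondrial genes took 4.0% to 12.7% of the counts.

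The 10 genes, the pathway lists and the marker lists were chosen with earlier results of these data known. All 10 genes are named. From each pathway list the text names the genes past the study's threshold after LPS or with CPD-4645, at most the 4 largest in each direction, or else the gene of lowest adjusted p. It also names *Itga5*, *Id1* and *Skil*, and the 5 genes most correlated with *Tgfb1*. A gene that the rule names is not reported here, though the counts of its list include it. The marker lists were endothelial, pericyte and smooth muscle, fibroblast, astrocyte, neuron, oligodendrocyte, microglia, monocyte and macrophage, neutrophil, platelet, lymphocyte and choroid plexus.

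The 21 alternatives were limma-voom with limma 3.58.1 (the study's method), DESeq2 1.42.0, its size factors in edgeR, no filter, a minimum mean count of 50, fits restricted to the pair of groups compared, a replicate block, each of the 13 mice left out, and the 2 shallowest libraries left out, which was chosen after the totals were seen. The edgeR, limma-voom and DESeq2 fits of LPS-vehicle against sham-vehicle were tested on simulated counts. Promoter windows came from RefSeq. Other computation used Python 3.11.15 with pandas 2.3.3 and numpy 2.4.6, and plots used matplotlib 3.10.9.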

Additional observations from a re-analysis of the deposited data

Results flagged for a closer look

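The CPM of each of the 10 TGF-beta genes was checked within each group for a mouse that stood apart from the rest, in 30 groups of values by Dixon's criterion. Chance marks about 1 in 20 such groups, and 2 of the 30 were marked. *Tgfb1* in sham-vehicle mouse 4 stood at 3.85 CPM, while the other 3 sham-vehicle mice lay between 6.56 and 6.99 CPM, so that the gap took 0.862 of the group's range. *Ltbp1* in LPS-CPD-4645 mouse 3 stood at 3.84 CPM, while the other 3 mice of its group lay between 7.91 and 8.29 CPM, with a gap of 0.914 of the range. The library of sham-vehicle mouse 4 also stood apart in its markers: endothelial markers summed to 431 CPM (601 to 691 in the other 3), pericyte and smooth muscle markers to 263 CPM (338 to 394), microglial markers to 243 CPM (316 to 325) and oligodendrocyte markers to 7040 CPM (4940 to 5380). LPS-CPD-4645 mouse 3 had the lowest pericyte and smooth muscle sum of its group, 232 CPM against 242 to 302 CPM. Its fibroblast (104 against 109 to 150), astrocyte (2070 against 2230 to 2650) and neutrophil sums (683 against 695 to 927 CPM) were also the lowest. Its choroid plexus sum was the highest, 793 CPM against 249 to 582 CPM. The part of these markers in either value was not tested.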

How the results depend on the processing

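The fold changes of the 10 genes were recomputed 630 times under 21 alternatives: 592 kept their direction and their side of the threshold, 23 lost a call, 2 gained one and 13 changed sign. None of the changes of sign was among called values. *Tgfbr2* after LPS (-0.01) became 0.05 by limma-voom and 0.11 without the 2 shallowest libraries, and ran from -0.13 to 0.19 with single mice left out. *Smad7* with CPD-4645 against LPS-vehicle (-0.06) ran from -0.13 to 0.02 on leaving out single mice, and for LPS-CPD-4645 against sham-vehicle *Tgfb1* (0.01) ran from -0.14 to 0.09 and *Tgfb2* (-0.02) from -0.06 to 0.09. The lost calls were *Smad3* after LPS (adjusted p 0.051 to 0.13 in 13 alternatives) and *Tgfbr1* with CPD-4645 (0.051 to 0.13 in 10). With single mice left out, 5 to 6, 4 to 5 and 5 to 6 of the 10 genes passed the test in the 3 comparisons, and 2 to 3, 1 and 1 to 2 were past the study's threshold. The 2 came without sham-vehicle mouse 1. DESeq2's size factors moved the median of all genes by at most 0.01 on the log2 scale.

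With the replicate number as a block, a pairing the deviations of same-numbered mice did not bear out (r -0.035 to 0.114 over 12 pairs), *Smad7* with CPD-4645 became 0.04 (adjusted p = 0.84) and *Smad3* after LPS missed the threshold (0.27, adjusted p = 0.051), which left 5 called genes after LPS. The counts of called pathway genes were then 39, 21 and 47. The cause of these moves was not tested. On average over genes the spread between mice exceeded counting error, but the shallowest library held 7813559 counts. Its mouse was the lowest of its group for *Tgfb2*, *Tgfbr2*, *Tgfbr3* and *Smad7*.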
